A study of Mus musculus with 4 samples.

Results

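The genes described here encode the proteins of the cytosolic ribosome, and their transcripts were compared between 2 libraries labelled WT and 2 libraries labelled KO2. They were chosen by symbol, as protein-coding genes named Rpl or Rps followed by a digit, with Rplp0, Rplp1, Rplp2 and Rpsa added and kinases, Rpl10l and pseudogenes left out. Of the 48526 genes in the files, 32782 were in the annotation that gave the symbols, and 84 of these met this rule. A ribosomal protein gene outside that annotation would be missed. 1 of them, Rps19bp1, encodes a protein that binds Rps19 and is not itself a ribosomal protein. The remaining 83 genes, 50 of the large and 33 of the small subunit, are the ribosomal protein genes of this report. Fau, which encodes a ribosomal protein fused to a ubiquitin-like domain under another symbol, lies outside the rule.

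By the paper's description, WT is the R1 line of mouse embryonic stem cells (ESCs). KO2 is described there as clone 2 of R1 ESCs in which CRISPR/Cas9 was aimed at the first exon of Zfp296. The protein of this zinc finger gene binds the chromatin-remodelling complex NuRD. KO2 is a single clonal line, so differences between the groups also hold whatever else sets that clone apart from the WT culture. Both groups were grown on gelatine with serum, LIF and the inhibitors PD0325901 and CHIR99021, and RNA was taken in duplicate, depleted of ribosomal RNA and sequenced in strand-specific libraries. The KO2 libraries were the deeper ones, with totals over genes of 7470907 and 7437294, while the WT totals were 2829914 and 4334499. The targeted gene went against the label: the libraries labelled WT held 31 and 31 counts of Zfp296 (11.6 and 7.33 CPM, counts scaled to library size), and those labelled KO2 held 416 and 282 (52.8 and 37.7 CPM). The libraries also differed in Y-linked genes, with 0 and 1 counts of Ddx3y in WT and 1979 and 2197 in KO2. Whether both groups came from the same parental line was not tested. Counts over a whole gene do not show whether its targeted exon was cut. WT and KO2 are therefore used below as the labels of the libraries, and every direction between them rests on those labels. Summed levels of 10 ESC markers were 5841.5 to 6189.7 CPM in all 4 libraries, but 1 of the 10, the pluripotency factor Sox2, was called lower in KO2, with 873 and 806 CPM in WT and 483 and 489 CPM in KO2 (log2 fold change -0.79 ± 0.10, standard error, adjusted p = 7.82e-05 in edgeR, and 0.62 with ERCC scaling). Utf1 had the lowest log2 fold change of the 10, at -1.39, but was not called (adjusted p = 0.0866 in edgeR). DESeq2 called 2 of the 10, beside 454 of 12883 tested genes. In contrast to the summed ESC markers, the summed markers of primitive endoderm, fibroblasts and trophectoderm reached at most 10.4, 3.54 and 4.41 CPM.

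A ribosome holds a large subunit, which joins amino acids, and a small subunit, which reads the messenger RNA, and nearly all ribosomal proteins are present in a single copy per particle. Cells therefore need their messenger RNAs in similar amounts, and dividing cells such as ESCs make a great deal of them. Most of these messenger RNAs begin with a short run of pyrimidines, the TOP motif, through which growth signals acting by mTOR and Larp1 control their translation. Ribosomal protein messenger RNAs have also been copied back into mammalian genomes many times, and the resulting processed pseudogenes can be nearly identical to the parent transcript. A short read that fits a gene and its pseudogenes equally well cannot be placed, and such reads were set aside in the counts.

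The sequences that show this problem most plainly are 43-base windows of coding sequence, given 5′ to 3′ on the strand of the gene and taken from the NCBIM37 (mm9) genome. For Rps27, Rpl29, Rpl7a and Rps12 the window with the most exact copies elsewhere in the genome is shown, and for Rpl4 a window with no other copy. The Rps27 window lies at chr3:90016878-90016920 on the minus strand (coding bases 162 to 204) and has 7 further exact copies. The same coding bases of its paralogue Rps27l lie at chr9:66795440-66795482 on the plus strand and have 1 further copy, with the 13 bases that differ from Rps27 in capitals. The windows of Rpl29 (chr9:106333433-106333475, plus strand), Rpl7a (chr2:26767897-26767939, plus strand) and Rps12 (chr10:23505037-23505079, minus strand) have 43, 54 and 21 further exact copies. The Rpl4 window lies at chr9:64022631-64022673 on the plus strand.
Rps27: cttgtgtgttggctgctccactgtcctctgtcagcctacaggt
Rps27l: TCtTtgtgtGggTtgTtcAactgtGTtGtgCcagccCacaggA
Rpl29: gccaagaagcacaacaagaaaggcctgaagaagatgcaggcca
Rpl7a: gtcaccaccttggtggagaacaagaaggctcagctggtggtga
Rps12: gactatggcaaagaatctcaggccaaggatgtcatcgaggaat
Rpl4: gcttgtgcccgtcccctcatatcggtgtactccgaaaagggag

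Start sites were read from RefSeq (GRCm38.p6, a later build than that of the counts), which matched 62 of the 83 genes. The window ran from 15 bases before to 15 bases after the start, and a run of at least 7 bases made only of C and T was searched on the strand of the gene. Of the 62 genes, 34 (54.8%) held such a run, compared to 21.3% of all 27025 genes in the table. On the opposite strand, 5 of the 62 genes (8.06%) and 23.1% of all genes held a run. Of the 10 genes with the largest differences between WT and KO2, 5 had a start site in the table. Of these 5 windows, 4 held a run, shown in capitals, and that of Rpl27 held none.
Rps6 (chr4:86857353-86857382, minus strand): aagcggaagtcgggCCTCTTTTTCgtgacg
Rps27 (chr3:90213634-90213663, minus strand): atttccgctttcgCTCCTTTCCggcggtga
Rpl35 (chr2:39005117-39005146, minus strand): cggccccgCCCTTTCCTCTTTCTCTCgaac
Rpl14 (chr9:120571502-120571531, plus strand): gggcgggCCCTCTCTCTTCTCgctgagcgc
Rpl27 (chr11:101442230-101442259, plus strand): acgctctgttcctgtctgctgctcgtgctg

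The first question was whether the share of the transcriptome given to ribosomal proteins differed between the groups. The 83 genes held 2.79% and 2.77% of all gene counts in WT replicates 1 and 2 and 3.01% and 2.75% in KO2 replicates 1 and 2. The KO2 values lay on either side of both WT values, so the groups overlapped. The mean share was 2.78% ± 0.00859 in WT and 2.88% ± 0.181 in KO2 (SD, n = 2), with p = 1.000 in a two-sided exact permutation test, which cannot go below 0.333 with 2 samples against 2. Large subunit genes held 1.44% and 1.38% in WT and 1.51% and 1.37% in KO2. Small subunit genes held 1.35% and 1.39% in WT and 1.50% and 1.38% in KO2. KO2 replicate 1 was thus the highest sample for both subunits. In RNA of whole cultures, fewer cells with a transcript and less transcript per cell cannot be told apart. The ratio of large to small subunit counts was 1.07 and 0.994 in WT and 1.01 and 0.993 in KO2, again with overlapping groups (exact permutation p = 0.667).

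**Figure D1:**
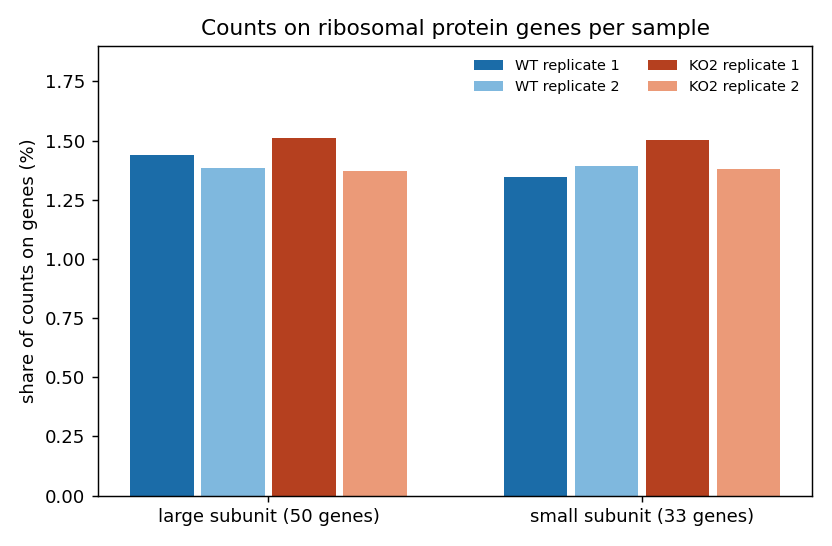
Share of counts on genes (percent, vertical axis) held by the 50 large and 33 small subunit genes, with one bar per sample. The 4 bars of each subunit lie between 1.35% and 1.51%, and KO2 replicate 1 is the highest in both.

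Gene by gene, the ribosomal protein genes differed little between WT and KO2. Counts were scaled by the TMM method and tested by the quasi-likelihood method of edgeR, and a gene was called when its adjusted p (Benjamini-Hochberg over all tested genes) was under 0.05. Of the 83 genes, 82 passed the filter on low counts, and 1 of these 82 was called, being lower in KO2. Over all 12883 tested genes, 726 were called (5.64%), with 335 higher (2.6%) and 391 lower (3.04%). No member was called higher, and none of the 33 small subunit genes was called in either direction. Without adjustment, 19 members had a p under 0.05, 6 of them higher and 13 lower (23.2%, compared to 19.4% of all tested genes), and 5 of these 19 were small subunit genes. DESeq2 called no member and gave 11 an unadjusted p under 0.05. No member was called lower either without WT replicate 1, with ERCC scaling, without the filter or with the older quasi-likelihood method, so the 1 call rested on that library and on those settings.

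The median log2 fold change, KO2 to WT, was -0.0025 over the 49 tested large subunit genes and 0.0067 over the 33 small subunit genes, beside 0.013 over all tested genes. Positive and negative values were evenly split, with 41 members above and 41 below 0. In size, log2 fold changes had a median of 0.18 over the members and 0.27 over all tested genes, and 75 of the 82 members (91.5%) were under 0.5, compared to 72.5% of all tested genes. Members were also more abundant than most genes, with a median of 236.7 CPM against 22.5 CPM, and their median standard error was 0.14 against 0.26. For 72 of the 82 members (87.8%) the 95% interval of the log2 fold change lay within -1 and 1, and for 46 it lay within -0.5 and 0.5. Changes of 2-fold or more therefore lay outside the interval for those 72 genes, whereas the other 10 were measured too coarsely to say. Both KO2 values exceeded both WT values for 11 members (13.4%, compared to 25.4% of all tested genes) and both fell short of both WT values for 15 (18.3%, compared to 23.4%).

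**Figure D2:**
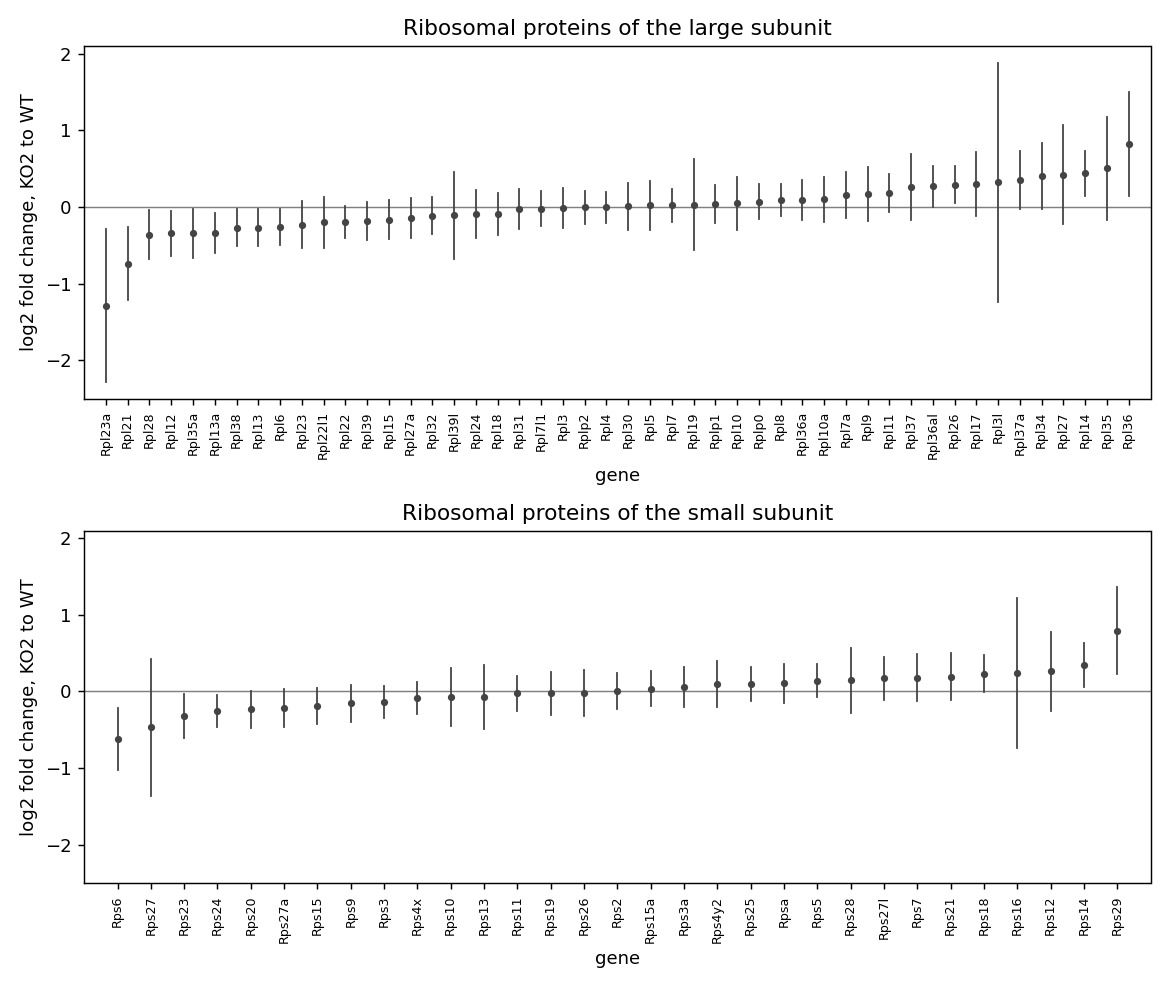
Log2 fold change of KO2 to WT (vertical axis) for 48 large subunit genes (upper panel) and 31 small subunit genes (lower panel), with points for the estimates and lines for 95% intervals. Most points lie within 0.5 of 0, and no gene drawn has an adjusted p under 0.05.

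Replicates of a group differed by amounts of the same order as the groups did. Across the 82 members, the median size of the log2 difference between the replicates was 0.26 in WT and 0.16 in KO2. WT replicate 1 was the highest of the 4 samples for 29 members and KO2 replicate 1 for another 29, while KO2 replicate 2 was the highest for 6 and the lowest for 25. Several of the largest differences below came from 1 library, which is named in each case.

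WT replicate 1 was also the highest sample for Rpl21, whose protein lies near the 5S ribosomal RNA, and for Rps6, the small subunit protein that S6 kinases phosphorylate. Rpl21 had 300.7 and 132 CPM in WT and 134 and 123 CPM in KO2. Rps6 had 346 and 178 CPM in WT and 179 and 160 CPM in KO2. In both genes WT replicate 1 was high and the other 3 samples lay close together. Their log2 fold changes were -0.74 ± 0.23 and -0.62 ± 0.19 (standard error), with adjusted p of 0.0621 and 0.0719 in edgeR. Without WT replicate 1 these became -0.046 and -0.070, and with another scaling (RLE) both genes were called lower, with adjusted p of 0.0345 and 0.0421.

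Rpl23a and Rpl35, whose proteins sit at the exit of the peptide tunnel, were measured on few reads. Rpl23a, which forms the docking site of the signal recognition particle at the exit, had 26 and 31 counts (9.69 and 7.33 CPM) in WT and 27 and 25 counts (3.42 and 3.34 CPM) in KO2. Its log2 fold change was the lowest of all members, at -1.29, but with an interval from -2.29 to -0.29 and an adjusted p of 0.131. Of its windows, 5.41% were unique, and 55.4% of its transcript overlapped exons on the other strand. Rpl35, its neighbour at the exit, had 14.2 and 10.9 CPM in WT and 20.04 and 14.7 CPM in KO2 (log2 fold change 0.50, interval -0.16 to 1.17, adjusted p = 0.418). It too overlapped exons on the other strand, over 68.3% of its transcript. Rpl4, whose loop lines the tunnel wall, was among the most steadily measured members, with 1556 and 1595 CPM in WT and 1625 and 1521 CPM in KO2 (log2 fold change -0.0025, interval -0.21 to 0.20).

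The acidic stalk, which recruits the elongation factors, consists of Rplp0, Rplp1 and Rplp2. Their log2 fold changes were 0.066, 0.039 and -0.0043, and the widest of their intervals ran from -0.21 to 0.28. Rplp2, for instance, had 448 and 470.5 CPM in WT and 471.5 and 444.5 CPM in KO2. Rpl5 and Rpl11 join 5S ribosomal RNA in the particle that also binds Mdm2 and so links ribosome assembly to p53. Rpl5 had a log2 fold change of 0.019 (interval -0.30 to 0.34) and Rpl11 one of 0.18 (interval -0.064 to 0.43), and neither was called. Of the 33 tested members listed as having bacterial counterparts, the median log2 fold change was 0.020, and of the 49 not listed, -0.023. The unlisted genes include Rpl3l and Rpl7l1, paralogues of the listed Rpl3 and Rpl7.

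The large subunit genes with the highest log2 fold changes were Rpl36 (0.82), Rpl35, Rpl14 (0.44) and Rpl27 (0.42), none of them called. For Rpl36, WT held 22 and 49 counts (8.20 and 11.6 CPM) and KO2 153 and 123 (19.4 and 16.4 CPM), so the groups did not overlap, and its interval ran from 0.14 to 1.50 (adjusted p = 0.166). Rpl14, by contrast, was well covered, at 266.5 and 280.2 CPM in WT and 438 and 303 CPM in KO2. KO2 replicate 1 stood apart from the other 3 samples of Rpl14, and without it the log2 fold change was 0.15, compared to 0.44 with all samples (adjusted p = 0.0741). Rpl27 had 16.4 and 11.8 CPM in WT and 21.2 and 15.6 CPM in KO2, and its groups overlapped.

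In the small subunit, Rps29, a zinc-binding protein of the head, had the highest log2 fold change, at 0.79 with an interval from 0.23 to 1.36 (adjusted p = 0.0997). Its level was 56.3 and 122 CPM in WT and 209 and 106 CPM in KO2, so replicates differed 2.17-fold within WT and 1.98-fold within KO2, and the groups overlapped. Rps16, whose tail reaches the transfer RNA in the decoding centre, varied the most between KO2 replicates, at 29.1 and 85.5 CPM in WT and 117 and 22.7 CPM in KO2. That was a 5.16-fold difference within KO2 and a 2.94-fold difference within WT, and the interval of its log2 fold change ran from -0.74 to 1.22. Rps27, a zinc finger protein of the body, had 17, 51, 44 and 63 counts in the 4 samples, and its log2 fold change of -0.47 had an interval from -1.37 to 0.43. Rps3 and Rps2, which line the entry of the messenger RNA channel, had log2 fold changes of -0.14 (interval -0.34 to 0.071) and 0.0067 (interval -0.23 to 0.24). Rps19, the gene most often mutated in Diamond-Blackfan anaemia, had one of -0.023 (interval -0.30 to 0.26).

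**Figure D3:**
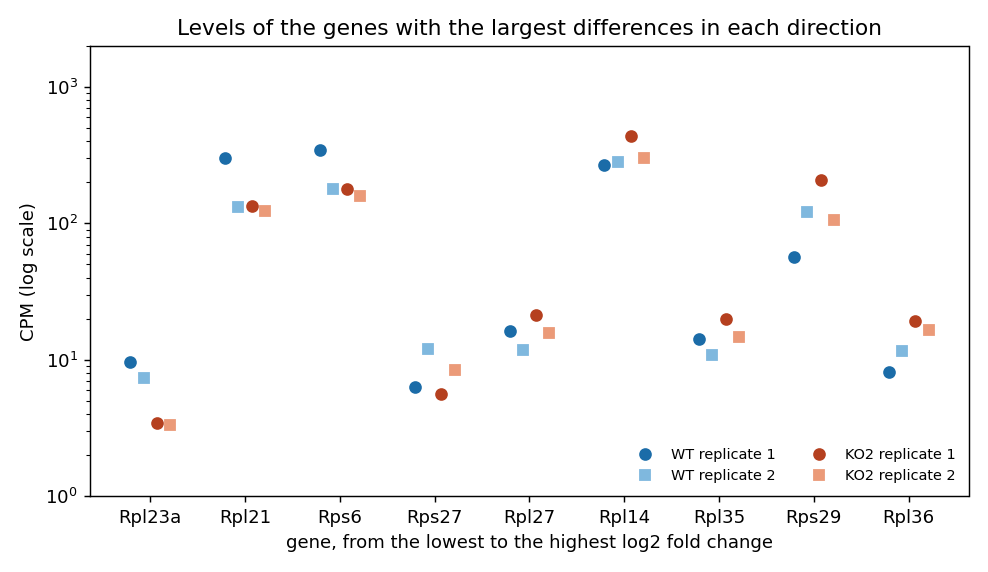
CPM on a log scale (vertical axis) in each of the 4 samples for 9 of the genes with the lowest and highest log2 fold changes. WT replicate 1 lies above the other samples in Rpl21 and Rps6, KO2 replicate 1 lies above them in Rpl14 and Rps29, and the WT and KO2 values of Rpl23a, Rpl14, Rpl35 and Rpl36 do not overlap.

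Some ribosomal proteins have a second gene whose product can take the same place in the ribosome, and 6 such paralogues were measured beside the genes they are named after. Rpl22l1 had 64.1 and 82.0 CPM in WT and 65.6 and 62.7 CPM in KO2, and Rpl22, whose protein is known to act on the Rpl22l1 transcript, had 607 and 597 CPM in WT and 533 and 516 CPM in KO2. Their log2 fold changes were both -0.20 and neither was called (adjusted p = 0.548 and 0.293). Rps27l had 231 and 179 CPM in WT and 215 and 245 CPM in KO2 (log2 fold change 0.17, interval -0.11 to 0.45, adjusted p = 0.530). The far lower count of Rps27 itself went with its windows, of which 0.33% were unique, against 76.6% for Rps27l, so the levels of this pair could not be set against each other. Rpl36al had 113 and 109 CPM in WT and 136 and 132 CPM in KO2, without overlap between the groups, and a log2 fold change of 0.27 that was not called (adjusted p = 0.252). Its X-linked relative Rpl36a had one of 0.095. Rpl7l1 was level in all 4 samples, at 258 to 271 CPM, and Rpl7 lay between 1052 and 1196 CPM.

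Rpl3l and Rpl39l are known as the forms of striated muscle and of the male germ line, and Rpl39l was lower than Rpl39 per kilobase in all 4 samples. Rpl39l had 36.5 and 25.3 CPM in WT and 20.3 and 36.1 CPM in KO2, compared to 165 to 201 CPM for Rpl39. Rpl3l had 18, 2, 37 and 20 counts in the 4 samples, the second of which is below the 3 counts taken as the lowest that can be read, and its log2 fold change of 0.32 had an interval from -1.23 to 1.88. Nearly all windows of both paralogues were unique (98.7% each). Rpl3 had 209 and 256 CPM in WT and 244 and 216 CPM in KO2, with 8.26% unique windows.

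Since the libraries differed in Y-linked transcripts, the 4 X-linked members were looked at separately. Rps4x had 1132 and 1240 CPM in WT and 1081 and 1154 CPM in KO2 (log2 fold change -0.086, interval -0.30 to 0.12). Rpl10, which completes the large subunit in the cytoplasm, had a log2 fold change of 0.047 and Rpl39 one of -0.18, and Rpl36a is given above. None was called, and the 428 tested X-linked genes had a median of -0.059. Rps4y2, which despite its name lies on chromosome 6, had 230.3 and 294 CPM in WT and 324 and 240.1 CPM in KO2. It is protein-coding in the annotation used here but a transcribed pseudogene in RefSeq.

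Levels of different genes were compared as CPM per kilobase of messenger RNA, using the annotated transcript with the longest coding sequence. Where several transcripts shared that coding length, the shortest was taken. Rpl32 was the highest, at 2184 CPM per kilobase on average and 1985 to 2560 in the single samples, above every sample of any other member. Rpl7 (1351), Rpl38 (1279) and Rpl22 (1188) were also among the highest, and their ranges overlapped, so their order could not be told. Rpl22 was divided by 474 bases, while its longest annotated transcript has 2051. Rpl7 was divided by 838 bases, all of them coding. The places of Rpl22 and Rpl7 therefore depend on the transcript taken. Rpl38, known for its role in the translation of Hox messenger RNAs, ranged from 1035 to 1437 CPM per kilobase. At the other end, Rpl3l had 2.65 CPM per kilobase, Rpl23a 10.6, Rpl35 15.8 and Rpl24 17.0, and the ranges of the last 3 overlapped from one to the next. The value of Rpl24 was computed on an annotated transcript of 4999 bases, the longest used for any member, and is lowered by that length. Its annotated coding sequence of 3150 bases was also the longest of all members, ahead of 1269 bases in Rpl13a. The level, windows and pseudogenes given for Rpl24 describe that annotated transcript and are not taken as those of the ribosomal protein messenger RNA. Whether the counts of this entry are those of that messenger RNA alone was not tested. Between the highest and lowest tested members lay an 824-fold range.

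To see how far the reads of each gene could be placed, the share of 43-base windows of its longest coding transcript without an exact copy elsewhere in the genome was computed. The read length of these libraries is not given in the sources used here, and 43 and 75 bases are the lengths stated for the ChIP-seq of the same study. The median share of unique windows was 45.6% over the 83 genes, from 0.33% in Rps27 to 99.4% in the entry annotated as Rpl24. The value of Rpl24 belongs to its annotated transcript of 4999 bases described above and is not taken as that of the ribosomal protein messenger RNA. The next highest share was 98.7% in Rpl3l. Rps12 (1.89%), Rpl36 (4.97%) and Rps6 (5.26%) were also among the lowest, and 23 genes were under 25% while 16 were at or above 75%. With 75-base windows the median was 53.2%. These shares depend on the transcript taken. Over 43-base windows of the transcript used for the levels per kilobase, the median was 30.3%, with 35 genes under 25% and 12 at or above 75%. In the same libraries, alignments that were not unique made up 37.0% and 40.4% of all rows in WT and 35.6% and 35.6% in KO2.

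A low share did not always mean a low level. Rps6, with 5.26% unique windows, had 346 and 178 CPM in WT and 179 and 160 CPM in KO2, whereas Rps12, with 1.89%, had 20.1, 19.9, 24.9 and 23.1 CPM in the 4 samples. Over the 82 tested members, which share libraries and annotation, Spearman's rho between the share of unique windows and the CPM per kilobase was 0.095. It was 0.14 when windows were taken from the transcript used for the length, 0.19 with 75-base windows and 0.23 with both. With the number of aligned pseudogenes rho was -0.27. Replicates were further apart where few windows were unique: the median size of the log2 difference between WT replicates was 0.41 over the 22 tested genes under 25% and 0.10 over the 16 at or above 75%. In KO2 these values were 0.17 and 0.12.

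**Figure D4:**
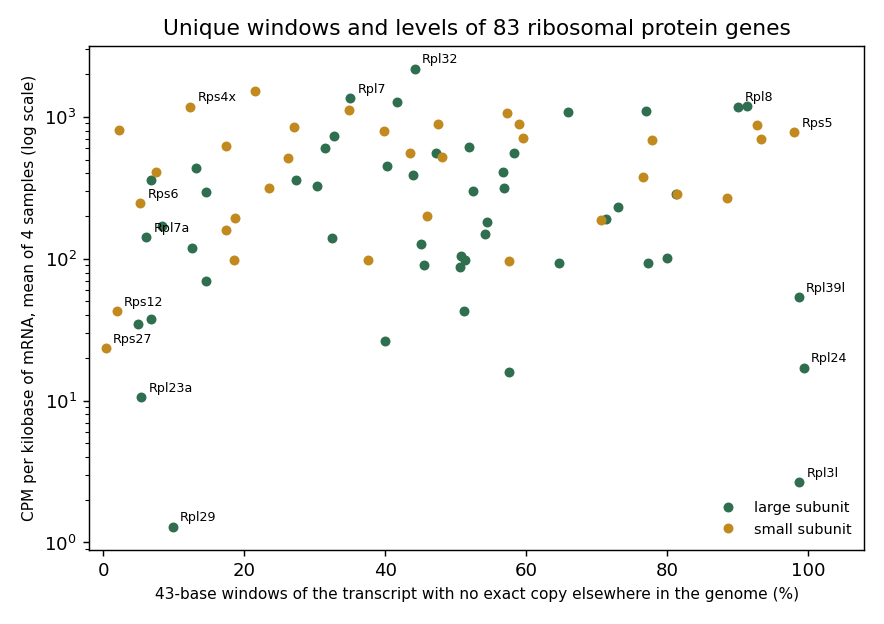
CPM per kilobase of messenger RNA on a log scale (mean of the 4 samples, vertical axis) against the share of 43-base windows without an exact copy elsewhere in the genome (percent, horizontal axis) for the 83 ribosomal protein genes, coloured by subunit. High and low points occur at both ends of the axis, with Rps27 and Rps12 low at the left, Rps6 above them and Rpl3l low at the right.

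The reads that did reach pseudogenes were traced by aligning annotated pseudogenes to the members, with at least 100 aligned bases and 80% identity. Of 4610 annotated pseudogenes, 806 aligned to a ribosomal protein gene, and 77 of the 83 genes had at least 1. Rpl7a had the most, with 57, followed by Rps2 with 50 and Rpl21 and Rpl29 with 45 each, and the median was 7. Rpl4, Rpl8, Rpl24, Rpl39l, Rpl3l and Rps4y2 had none, with Rpl24 read on its annotated transcript of 4999 bases. On the 806 pseudogenes the WT libraries held 2762 and 4404 counts, the KO2 libraries 8979 and 7684, which was 3.50% and 3.66% of the counts on the genes themselves in WT and 3.99% and 3.75% in KO2. The KO2 values lay above the WT values, with the smallest p the exact permutation test allows (0.333).

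For 3 genes the pseudogenes held more counts than the gene. Rpl29 is the extreme: the gene had 0, 5, 7 and 12 counts in the 4 samples and failed the filter, whereas its pseudogenes had 1240 counts in all, of which 92, 188, 436 and 418 fell on Gm13841, a copy with 99.2% identity. A count of 0 in WT replicate 1 allows a level of up to 1.11 CPM there. Rpl17 had 2161 counts against 3292 on its pseudogenes, chiefly Gm10294 and Rpl17-ps5, and Rpl27 had 378 against 420. Of the summed counts of a member, the part on pseudogenes had a median of 2.56%, and it exceeded 10% for 21 members. Reads on a pseudogene with near-complete identity may come from the pseudogene or the parent gene, and the 2 cannot be told apart here.

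When pseudogene counts were added to their parent genes, all 83 genes passed the filter and the number of members called was again 1. Rpl29 then had 37.1 and 49.9 CPM in WT and 61.5 and 61.9 CPM in KO2 (log2 fold change 0.49 ± 0.18, adjusted p = 0.124), without overlap between the groups. The log2 fold change of Rpl36 moved the most, from 0.82 to 0.52, that of Rpl17 went from 0.29 to 0.066 and that of Rpl23a from -1.29 to -1.08. The median shift over the members was 0.0081. Of the 91 pseudogenes that passed the filter alone, 2 were called, 1 of them Gm14165, a copy of Rplp0 with 25, 125, 439 and 277 counts (log2 fold change 1.16, adjusted p = 0.0361 in edgeR). Rplp0 itself was not called.

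**Figure D5:**
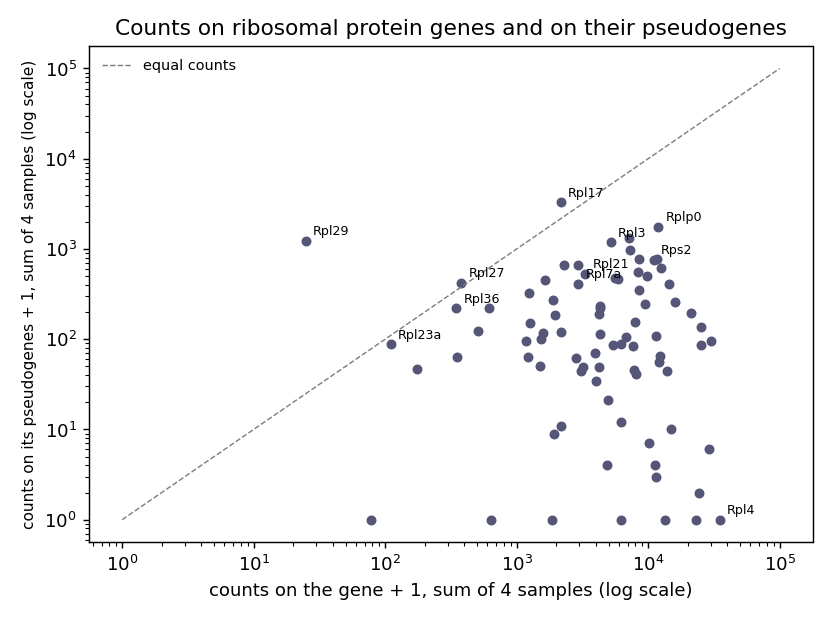
Counts on the pseudogenes of each ribosomal protein gene (vertical axis) against counts on the gene (horizontal axis), both as the sum of the 4 samples plus 1 on log scales. Rpl29, Rpl17 and Rpl27 lie above the dashed line of equal counts, and Rpl4, with no aligned pseudogene, lies at the lower right.

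Genes that build the ribosome, regulators of growth and mitochondrial ribosomal protein genes gave no call in the same fit. Beside 5.64% of all tested genes called, none was called among 14 tested factors of RNA polymerase I transcription, 13 proteins of the small nucleolar ribonucleoproteins, 47 small subunit and 53 large subunit assembly factors, 22 regulators of growth and ribosome synthesis and 74 mitochondrial ribosomal proteins. At an unadjusted p under 0.05, which 19.4% of all tested genes had, there were 1, 4, 6, 4, 2 and 5 genes in these lists, and DESeq2 called none. Their median log2 fold changes were -0.039, -0.14, -0.034, -0.053, -0.056 and 0.10. Fbl, the methyltransferase of the nucleolus, had the lowest value of the ribonucleoproteins, with 79.4 and 54.1 CPM in WT and 54.7 and 35.6 CPM in KO2 (log2 fold change -0.55, adjusted p = 0.156). The mitochondrial ribosomal protein genes together held 0.305% and 0.297% of gene counts in WT and 0.346% and 0.327% in KO2. Both KO2 shares lay above both WT shares, with the smallest p the exact permutation test allows (0.333).

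Of 38 tested translation factors and other TOP messenger RNAs, 1 was called lower and 1 higher (median log2 fold change 0.00089), a share near the 5.64% of all tested genes. Eif2s2, the beta subunit of the factor that brings the initiator transfer RNA, had 1623 and 1602 CPM in WT and 1072 and 1222 CPM in KO2. Its replicates lay close together, and its log2 fold change was -0.49 ± 0.10 (standard error, adjusted p = 0.0059 in edgeR). Eif2s2 was not called without WT replicate 1 (adjusted p = 0.102), without WT replicate 2 (0.0696), with ERCC scaling (0.999) or without the filter (0.127). Eif3l, a subunit of initiation factor eIF3, had 199 and 204 CPM in WT and 282 and 250.4 CPM in KO2, and its log2 fold change was 0.40 ± 0.12 (standard error, adjusted p = 0.0479). With DESeq2 the adjusted p of Eif3l was 0.0514, and it was not called with ERCC scaling, without the filter, with the length or GC offset or without WT replicate 1, WT replicate 2 or KO2 replicate 1 (adjusted p from 0.0512 to 0.866). Eef1a1 and Eef2, the elongation factors of the TOP class, had log2 fold changes of -0.084 and -0.093 and were not called.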

How the data were processed

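The authors aligned the reads to mm9 (HISAT2), assigned them to genes (HTSeq) and deposited the raw counts of every sample, along with ERCC rows and HTSeq's summary rows. Versions and counting options are not given in the sources used here. The analysis started from these counts and left out the summary rows. Gene symbols, coordinates and transcripts came from GENCODE M1 on NCBIM37, which held 32782 of the 48526 genes. Counts were scaled with TMM, filtered with filterByExpr (minimum count 10, minimum total 15) and tested with edgeR 4.0.16 (glmQLFit with legacy=FALSE, glmQLFTest, R 4.3.3) with condition as the only term and all 4 samples. CPM use TMM-scaled library sizes, and 3 counts correspond to 0.379 to 1.11 CPM. Standard errors and 95% intervals come from the same fit. No source says that the duplicates came from separate cultures, beyond the label of biological replicates, so p-values measure the spread between these samples. Counts of replicates were further apart than sampling noise allows (chi-square over genes of 5.92 per gene in WT and 21.3 in KO2). These values rise with depth, so they do not rank the groups by noise. Between replicates, log2 CPM correlated at 0.953 in WT and 0.978 in KO2. The numbers of replicates were not taken as pairs: the deviations of same-numbered samples correlated at -0.0066.

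Named genes were every member called, the 5 tested members that differed most in either direction, paralogues with the genes they are named after, the 5 highest per kilobase, the 5 with the fewest unique windows, and called genes of each list. A few members are not reported here by name and stay in the counts. Others were named for their role or chosen after their values were seen (Rps16, Rpl29, Rpl4, Fbl and the pseudogenes). The members and lists were chosen with earlier results of these data known. Windows were counted over both strands of the genome, and pseudogenes were aligned with blastn. The scripts were tested on simulated data. Alternatives were RLE, TMM without the members, ERCC scaling, no filter, 10 counts in every sample, DESeq2 1.42.0, the older quasi-likelihood method, a replicate block, length and GC offsets, and leaving out each replicate. Adding pseudogene counts and taking windows of the transcript with the longest coding sequence were chosen after seeing the data.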

Additional observations from a re-analysis of the deposited data

How the results depend on the processing

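All alternatives were compared on the same values. Over all tested genes, 163 were called with ERCC scaling, 61 without the filter, 454 with DESeq2 and, leaving out 1 replicate at a time, 270 (without WT replicate 1) to 691 (without KO2 replicate 2), compared to 726. Ribosomal protein genes called lower numbered 0 with ERCC scaling, without the filter, with DESeq2 and with the older quasi-likelihood method, 3 with RLE and 3 with the length offset (Rpl21 and Rps6 among them each time), 2 with the GC offset (Rpl13a among them) and 0 (without WT replicate 1) to 5 (without WT replicate 2) with a replicate left out. Genes called higher numbered 1 with at least 10 counts in every sample (Rpl14) and 0 (without WT replicate 1 or KO2 replicate 1) to 4 (without WT replicate 2 or KO2 replicate 2) with a replicate left out. For RLE, the length and GC offsets, 10 counts in every sample and the older quasi-likelihood method, totals over all genes are not given here. Member and list counts of those fits therefore have no share beside them. Rpl13a was the 1 member whose longest transcript overlapped exons of another gene on the same strand, over 58.0% of its length. The replicate block called 946 genes, with 2 members higher (Rpl14 and Rps29) and 3 lower (Rpl21 and Rps6 among them). The labels give the groups the same numbers, but the samples did not deviate together by number, and 2 pairs cannot show a pairing. With the block, 1 gene was called in each of the small nucleolar ribonucleoprotein, large subunit assembly and mitochondrial ribosomal protein lists. With 10 counts in every sample 1 large subunit assembly factor was called, and with the length offset 1 mitochondrial ribosomal protein. Translation factors called numbered 0 with ERCC scaling and without the filter, 1 with DESeq2, the length offset and the GC offset, and 0 (without either WT replicate) to 4 (without KO2 replicate 2). The small nucleolar ribonucleoprotein, small and large subunit assembly and mitochondrial lists each ran from 0 to 1 with a replicate left out. With ERCC scaling the median log2 fold change was 0.086 for the large and 0.092 for the small subunit, beside 0.090 for all genes. Leaving out a replicate, the large subunit median ran from -0.043 to 0.033, and the log2 ratio of the share of counts from -0.014 (without KO2 replicate 1) to 0.11 (without KO2 replicate 2), compared to 0.051. The median share of unique windows was 53.2% with 75 bases and 30.3% over the transcript with the longest coding sequence. Log2 fold changes near 0 changed sign, to 0.050, 0.011 and 0.0076 for Rpl3 with ERCC scaling, no filter and 10 counts in every sample, to 0.068 and 0.0057 for Rpl7l1 with the first 2 of these, to 0.016 for Rpl39l with ERCC scaling and to -0.0091 for Rpl7 with the length offset. With a replicate left out, signs also changed within the ranges -0.81 to 0.14 (Rps27), -0.86 to 2.92 (Rpl3l), -0.15 to 0.14 (Rpl3), -0.069 to 0.12 (Rpl7), -0.35 to 0.0008 (Rpl22l1), -0.0062 to 0.20 (Rpl36a), -0.57 to 0.27 (Rpl39l), -0.0095 to 0.36 (Rps27l) and -0.29 to 0.078 (Rpl32). The cause of these shifts was not tested. Of the 404 values of named genes under an alternative, 351 kept their direction and their side of the threshold. Depth limited Rpl23a, Rps27, Rpl3l and Rpl29 most, with at most 63 counts in a sample.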
